A study of Mus musculus with 12 samples.

Results

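The epidermal growth factor (EGF) ligands and receptors were followed in mouse liver with and without *Yap1*. The 10 genes were the rows of the deposited expression table named *Egfr*, *Erbb2*, *Erbb3*, *Met*, *Tgfa*, *Btc*, *Hbegf*, *Areg*, *Ereg* and *Egf*, out of 25676 genes in the table. RNA was sequenced from the whole livers of 12 C57BL/6 mice aged 3 to 4 months, 1 library per mouse, as 4 groups of 3: WT males, WT females, and males and females of the genotype Foxa3-Cre YAP1 KO. YAP1 is a transcriptional co-activator of the TEAD factors. In the KO mice Cre recombinase was driven by *Foxa3*, a gene active in the endoderm that forms hepatocytes and bile duct cells, so stellate, endothelial and blood-derived cells of the same livers are not targeted. Whether the WT mice carried Cre or a floxed allele is not given in the sources used here.

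EGF family ligands are made as membrane-anchored precursors that ADAM proteases release, and they bind EGFR (ERBB1) and its relatives ERBB2, ERBB3 and ERBB4, which signal as pairs through RAS, ERK and AKT. In the liver, hepatocytes carry much EGFR and ERBB3, and TGF-alpha, HB-EGF and amphiregulin are known for their part in regeneration after injury. MET is not an EGF receptor: it binds hepatocyte growth factor (HGF) and acts beside EGFR in hepatocyte growth, and it is described here with the family.

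Values are TPM (transcript abundances scaled to the same sum in each library), which allow for gene length, so levels of different genes can be set side by side. *Yap1* checked the labels: it lay at 23.0 to 34.9 TPM in the 6 WT livers and at 0.994 to 3.11 TPM in the 6 KO livers (exact permutation of genotype within sex, two-sided p = 0.005, the smallest this design can give). Estimated reads per library, summed only over genes whose whole reads could be recovered (at least 88.0% of the TPM), ranged from 17338680 to 24787088. Genes above 0 TPM ranged from 14321 to 15482. The hepatocyte markers were high in all libraries, with *Alb* at a mean of 70629 TPM in WT and 58427 TPM in KO. Over the 12278 tested genes the median log2 difference between KO and WT was 0.35 on the TPM as deposited and -0.04 after rescaling each library by median-of-ratios size factors, so each change below is to be read against that shift and is given on both scales where the call differs. The titles of WT female 3 and KO female 1 carry numbers far below those of the other mice, and the description of WT male 2 carries a library number apart from the rest. The labels do not say what these numbers stand for. Nothing in the labels says how mice were housed or paired, and p-values measure the spread between these mice.

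Of the 10 genes, 7 passed the filter on low values (a mean of at least 0.5 TPM) and entered the limma fit over all genes. *Hbegf* and *Areg* averaged below 0.5 TPM in WT and passed only through the KO livers, where they are high, so the count of higher members partly follows from the filter. In KO against WT, with sex as a covariate, 5 of these 7 were higher at a Benjamini-Hochberg adjusted p under 0.05, where 50.1% of all tested genes were higher, and 1 was lower, where 4.82% of all tested genes were lower. After rescaling, 3 were higher (20.9% of all tested genes) and 2 lower (18.7%). *Btc*, *Hbegf* and *Areg* were higher and *Egfr* was lower on both scales. *Tgfa* and *Erbb3* were higher on the deposited scale alone, and *Met* was lower on the rescaled one alone. *Ereg*, *Erbb2* and *Egf* lay below the filter and were tested singly.

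The stretches just upstream of 3 of these genes are shown because the ligands *Areg* and *Btc* rose and the receptor *Egfr* fell. *Areg* and *Btc* also belong, with *Ereg* and *Epgn*, to 1 cluster of ligand genes on chromosome 5, whose span from the start of *Epgn* to the end of *Btc* is 376 kb. Each sequence is the 250 bases before the RefSeq transcript start in build GRCm38, written 5′ to 3′ on the strand of the gene. They lie at chr5:91139349-91139598 (plus strand) for *Areg*, chr5:91402995-91403244 (minus strand) for *Btc* and chr11:16751953-16752202 (plus strand) for *Egfr*. Capitals mark a match to the cyclic AMP response element TGACGTCA, the motif of CREB-type factors.
Areg: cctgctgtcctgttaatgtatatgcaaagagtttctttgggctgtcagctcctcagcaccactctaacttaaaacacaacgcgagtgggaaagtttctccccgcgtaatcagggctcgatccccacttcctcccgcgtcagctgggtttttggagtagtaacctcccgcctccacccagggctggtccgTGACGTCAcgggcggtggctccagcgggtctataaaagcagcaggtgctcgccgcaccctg
Btc: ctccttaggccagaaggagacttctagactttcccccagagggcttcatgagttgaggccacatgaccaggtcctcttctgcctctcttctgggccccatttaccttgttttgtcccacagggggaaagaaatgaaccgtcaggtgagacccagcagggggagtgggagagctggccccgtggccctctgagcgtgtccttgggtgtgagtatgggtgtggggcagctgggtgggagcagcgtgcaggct
Egfr: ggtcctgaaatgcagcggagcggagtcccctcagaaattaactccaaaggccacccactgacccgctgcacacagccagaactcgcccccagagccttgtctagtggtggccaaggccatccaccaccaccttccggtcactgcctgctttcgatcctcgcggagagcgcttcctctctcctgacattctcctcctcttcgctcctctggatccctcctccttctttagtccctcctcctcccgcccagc

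RefSeq windows were matched for 7 of the 10 genes, with *Erbb3*, *Ereg* and *Hbegf* not among them. They were searched on both strands for the TEAD motif GGAATG, held by 12.6% of all 32851 such windows, the AP-1 motif TGANTCA (6.75%) and TGACGTCA (1.55%), the last added after the *Areg* window had been read. No letters of one motif overlapped another in these windows. In *Areg* TGACGTCA stands 61 to 54 bases before the start, in *Met* TGAGTCA stands 54 to 48 bases before it, and in *Erbb2* GGAATG stands 88 to 83 bases before it. The windows of *Btc*, *Egfr*, *Tgfa* and *Egf* hold none of these letters. A match is a string of letters and not a measured binding site.

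*Egfr*, the receptor shared by TGF-alpha, EGF, amphiregulin and the other ligands here, was the most abundant of the 10 genes in WT and fell in KO. WT males had 190.3, 161 and 93.1 TPM and WT females 57.1, 59.5 and 53.7 TPM. KO males had 49.9, 83.5 and 55.1 TPM and KO females 25.5, 43.4 and 33.2 TPM. Within each sex every KO liver lay below every WT liver on both scales, while KO males and WT females overlapped. As deposited this held for 3.42% of all tested genes in males and 7.88% in females. On that scale fewer genes were called lower (2.81% in males and 4.68% in females) than after rescaling (10.2% and 10.9%). Over both sexes the log2 difference was -0.97 with an SE of 0.19 (limma adjusted p = 0.00094), and after rescaling it was -1.43 (limma adjusted p = 0.000296). The 4 group means ran from 148 ± 49.9 TPM in WT males through 62.9 ± 18.1 in KO males and 56.7 ± 2.92 in WT females to 34.1 ± 8.97 in KO females (SD, n = 3), of which the middle pair did not differ beyond their spread.

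The fall of *Egfr* was 2.36-fold by group means in males (log2 difference -1.20, limma adjusted p = 0.00349) and 1.67-fold in females (log2 difference -0.75, limma adjusted p = 0.0469). The female value lay close to the threshold: its adjusted p ranged from 0.0172 to 0.169 as single libraries were left out, and it was above 0.05 when WT male 2, any of the 3 WT females, KO male 1 or 3, or KO female 1 or 3 was left out. It was also above 0.05 with no filter on low values (0.0761) and with eBayes without trend (0.0521). After rescaling the female difference was -1.09 (limma adjusted p = 0.0191). The male fall held without each of the 12 libraries, with adjusted p from 0.000558 to 0.0177.

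*Erbb3*, a receptor of the neuregulins whose own kinase is weak and which signals through its partners, was second to *Egfr* in WT (44.1 ± 11.4 TPM; SD, n = 6) and the most abundant member in KO (66.8 ± 6.08 TPM, against 48.5 ± 20.3 TPM for *Egfr*). WT males had 39.2, 43.6 and 44.1 TPM and WT females 32.6, 39.2 and 65.8 TPM. KO males had 67.2, 68.0 and 71.9 TPM and KO females 74.2, 60.9 and 58.6 TPM. In males every KO value was above every WT value, as in 50.8% of all tested genes. In females WT female 3 lay above 2 of the 3 KO females. *Erbb3* rose by 0.62 on the log2 scale as deposited (SE 0.14, limma adjusted p = 0.00285), but the rescaled difference was 0.16 (95% interval -0.16 to 0.48, limma adjusted p = 0.414) and did not pass. In males alone the deposited difference was 0.69 (limma adjusted p = 0.0169; 0.0522 without WT male 1 and 0.0506 without KO male 3), and after rescaling it was 0.13 (limma adjusted p = 0.711). In females *Erbb3* did not pass on either scale (0.54, limma adjusted p = 0.0629; 0.19 and 0.55 after rescaling). On the deposited scale it passed in females without WT female 3 (0.83, limma adjusted p = 0.00219) and with a covariate for the 2 mice with low title numbers (0.54, limma adjusted p = 0.0141).

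*Erbb2*, the co-receptor that binds no ligand of its own, was low throughout. It averaged 0.357 ± 0.162 TPM in WT and 0.373 ± 0.177 TPM in KO (SD, n = 6), on 7 to 43 estimated reads per library, and the genotypes overlapped (log2 difference 0.02, exact permutation p = 0.895; -0.11 and p = 0.28 after rescaling). *Met*, the HGF receptor, averaged 23.7 ± 4.02 TPM in WT and 23.6 ± 4.97 TPM in KO (SD, n = 6), and the ranges of 17.1 to 29.4 and 19.7 to 33.4 TPM overlapped. Its log2 difference was -0.01 with a 95% interval of -0.32 to 0.30 (limma adjusted p = 0.969). After rescaling it fell by 0.45 (interval -0.73 to -0.18, limma adjusted p = 0.0127), so that its call turns on the scale.

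**Figure D1:**
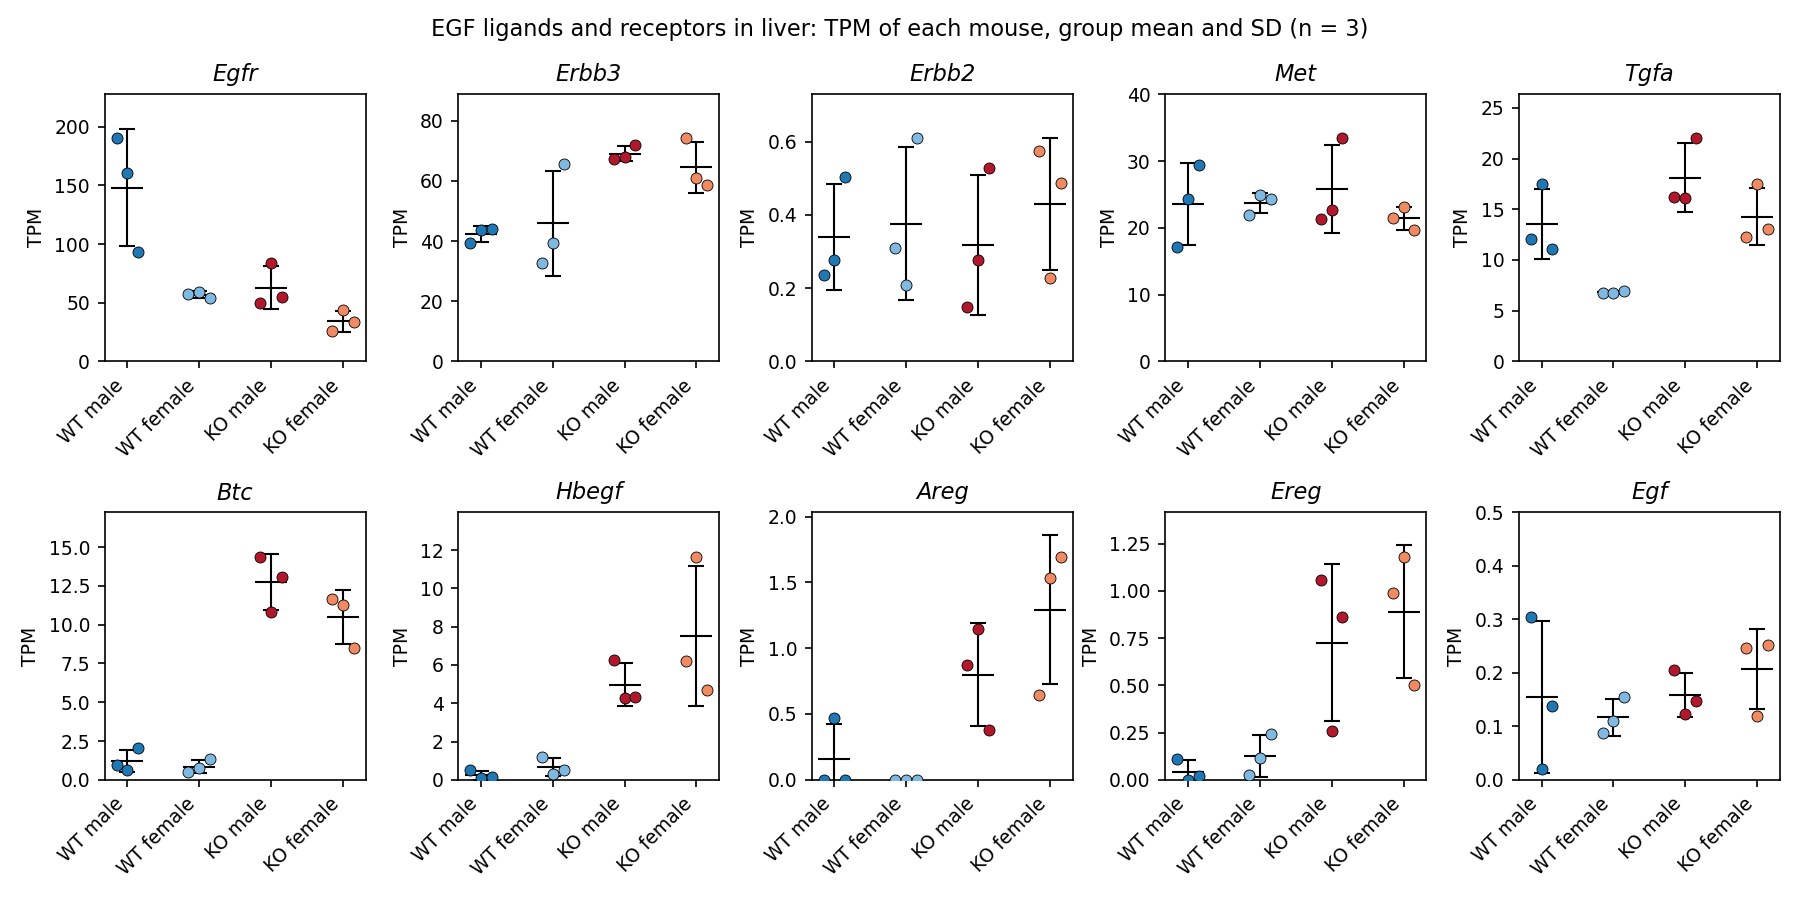
TPM (vertical axes, each from 0) of the 10 genes in each mouse, by genotype and sex; points are mice, and bars give the mean and SD of 3. For Egfr the WT males stand highest, at 93.1 to 190.3 TPM, and for Btc and Hbegf the 6 KO points all lie above the 6 WT points.

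Among the ligands, *Btc* and *Hbegf* were near the floor in WT and rose in every KO liver. *Btc* encodes betacellulin, which binds EGFR and ERBB4. It stood at 0.983, 0.652 and 2.02 TPM in WT males and 0.472, 0.787 and 1.31 TPM in WT females, and at 14.4, 10.8 and 13.1 TPM in KO males and 11.7, 11.3 and 8.50 TPM in KO females. The lowest KO liver, KO female 3, was above the highest WT liver, WT male 3. The mean went from 1.04 ± 0.562 to 11.6 ± 2.02 TPM (SD, n = 6), an 11.2-fold ratio, and the log2 difference of 2.66 (SE 0.16, limma adjusted p = 3.8e-08) was the largest of the 7 tested members with the pseudocount of 1. With a pseudocount of 0.1 *Btc* (3.48) came after *Hbegf* (3.77). Males (2.67) and females (2.64) gave nearly the same log2 difference, and their interaction was 0.03 with a 95% interval of -0.71 to 0.76.

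*Hbegf* encodes heparin-binding EGF-like growth factor, also a ligand of EGFR and ERBB4. WT males had 0.499, 0.0686 and 0.129 TPM and WT females 1.18, 0.278 and 0.508 TPM. KO males had 6.27, 4.28 and 4.35 TPM and KO females 6.23, 11.7 and 4.69 TPM. KO female 2 was the highest and WT male 2 the lowest, and no KO liver reached down to the WT range. The mean rose 14.1-fold, from 0.445 ± 0.406 to 6.25 ± 2.80 TPM (SD, n = 6), on 72 estimated reads in WT and 881 in KO, with a log2 difference of 2.30 (SE 0.20, limma adjusted p = 8.93e-07). After rescaling, *Btc* still rose by 2.32 and *Hbegf* by 2.04 on the log2 scale (limma adjusted p = 2.77e-07 and 9.45e-06). Groups that do not overlap with KO higher were found for 28.7% of all tested genes as deposited and 10.8% after rescaling.

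*Areg*, the gene of amphiregulin, an EGFR ligand, was listed at 0 TPM in 5 of 6 WT livers and at 0.469 TPM in WT male 2. KO males had 0.875, 1.15 and 0.378 TPM and KO females 0.645, 1.54 and 1.70 TPM. In females every KO value was above WT, as in 43.5% of all tested genes, while KO male 3 lay below WT male 2. The depth behind it is small, with 7 estimated reads in the WT males, 0 in the WT females (a count of 0 allows up to 3 reads), 27 in the KO males and 49 in the KO females. *Areg* rose by 0.90 on the log2(TPM + 1) scale (SE 0.17, limma adjusted p = 0.00075; 0.77 and 0.00534 after rescaling), a scale that understates changes at such low levels. Exact permutation of genotype within sex gave p = 0.01 on both scales. The rise in males alone (0.64, limma adjusted p = 0.0399) gave adjusted p of 0.0514 to 0.133 without WT male 1 or 3, any of the 3 WT females, or KO male 1 or 2, and 0.174 after rescaling. In females it was 1.16 (limma adjusted p = 0.00211).

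*Ereg*, which lies next to *Areg* and encodes epiregulin, a ligand of EGFR and ERBB4, had 0.110, 0 and 0.0185 TPM in WT males and 0.0235, 0.114 and 0.241 TPM in WT females. KO males had 1.06, 0.259 and 0.862 TPM and KO females 0.991, 1.18 and 0.499 TPM. All KO values were above all WT values as deposited, as in 28.7% of all tested genes, KO male 2 only just. After rescaling the genotypes overlapped across the sexes. Within each sex all KO values stayed above WT, as in 19.4% of all tested genes in males and 23.0% in females after rescaling. The estimated reads were 26 over the 6 WT libraries and 198 over the 6 KO libraries. The log2 difference was 0.72 (exact permutation p = 0.005, the smallest possible), and 0.60 with the same p after rescaling. *Epgn*, the remaining ligand gene of the chromosome 5 cluster, was listed at 0 in all 12 libraries.

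*Tgfa*, the gene of TGF-alpha, which hepatocytes themselves can make, was the most abundant ligand in WT. WT males had 12.1, 17.5 and 11.1 TPM and WT females 6.75, 6.73 and 6.95 TPM. KO males had 16.2, 16.1 and 22.0 TPM and KO females 12.3, 17.5 and 13.01 TPM. The WT females were low and close together, below every other liver, whereas WT male 2 lay within the KO range. The log2 difference was 0.68 (SE 0.15, limma adjusted p = 0.00223) as deposited and 0.24 (limma adjusted p = 0.309) after rescaling. In females it rose on both scales, by 0.95 (limma adjusted p = 0.00247) and 0.63 (limma adjusted p = 0.0476). In males the difference was 0.40 as deposited (limma adjusted p = 0.106) and -0.14 after rescaling (limma adjusted p = 0.674). Without WT male 2, the highest WT liver, *Tgfa* was also called higher in males as deposited, as 1 of 5 members.

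*Egf*, which in mice is made mainly outside the liver, was near 0 in both genotypes. It averaged 0.136 ± 0.0949 TPM in WT and 0.182 ± 0.0600 TPM in KO (SD, n = 6), on 2 to 26 estimated reads per library. The ranges overlapped (log2 difference 0.06, exact permutation p = 0.345; 0.00 and p = 1.0 after rescaling), and no difference was detectable at this depth.

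**Figure D2:**
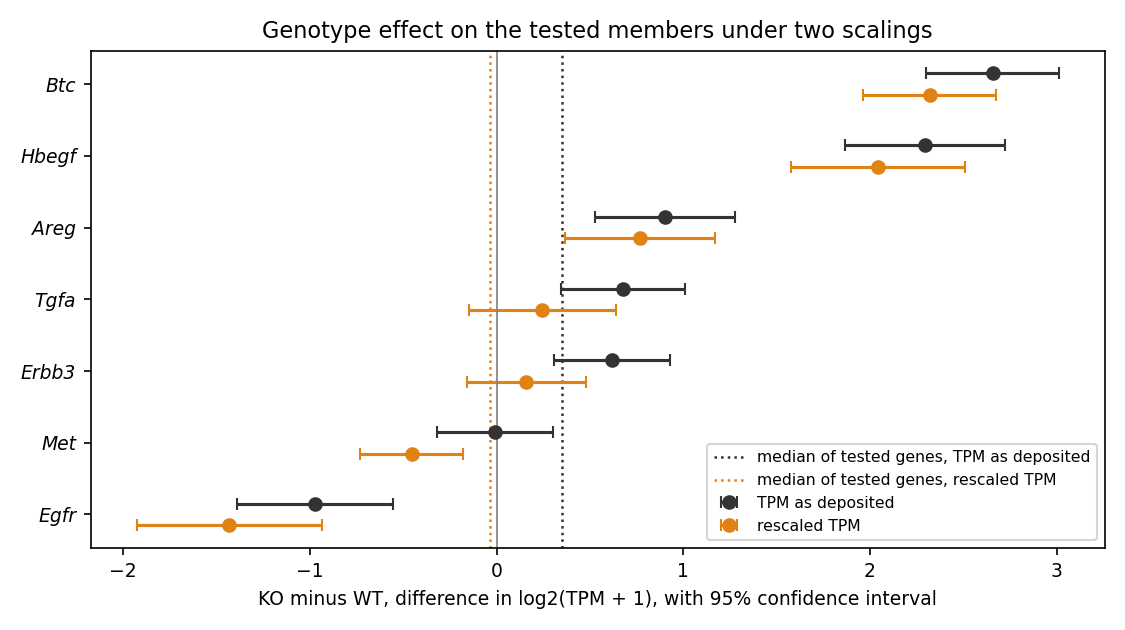
KO minus WT difference in log2(TPM + 1) of the 7 tested genes, with 95% confidence intervals, as deposited and after median-of-ratios rescaling; dotted lines mark the median of all tested genes at 0.35 and -0.04. Btc, Hbegf, Areg and Egfr lie clear of 0 on both scales, while Tgfa, Erbb3 and Met do so on 1 scale only.

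The 6 ligands summed to 8.02 to 18.8 TPM in WT livers and 28.7 to 43.3 TPM in KO livers as deposited. Such a sum depends on the scale between libraries: after rescaling it was 8.45 to 25.9 TPM in WT and 24.5 to 38.6 TPM in KO, and WT male 2 lay within the KO range. Shares and ratios within a library do not depend on that scale. *Tgfa* made up 83.6% ± 6.11 of that sum in WT and 44.8% ± 5.91 in KO (SD, n = 6), *Btc* 9.21% ± 4.73 and 32.3% ± 4.10, and *Hbegf* 4.64% ± 4.92 and 17.1% ± 5.69. The WT pool was thus mainly *Tgfa* and the KO pool a mix of *Tgfa*, *Btc* and *Hbegf*. The ratio of *Egfr* to *Erbb3* was 3.55 (2.11 to 4.85) in WT males, 1.36 (0.816 to 1.75) in WT females, 0.913 (0.743 to 1.23) in KO males and 0.541 (0.344 to 0.712) in KO females. *Erbb3* was the more abundant of the pair in 5 of 6 KO livers and in 1 of 6 WT livers. For every 100 TPM of *Egfr*, *Erbb2* and *Erbb3* together there were 8.36 ± 1.38 TPM of ligand transcript in WT and 31.9 ± 6.32 in KO (SD, n = 6). *Egfr* made up 66.2% ± 13.7 of that receptor sum in WT and 40.6% ± 9.70 in KO. ERBB2 binds no ligand of its own, ERBB3 binds neuregulins, and *Erbb4* was left out. The ratio is therefore not ligand per receptor able to bind it. These sums and ratios combine the values given above and carry no test of their own.

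**Figure D3:**
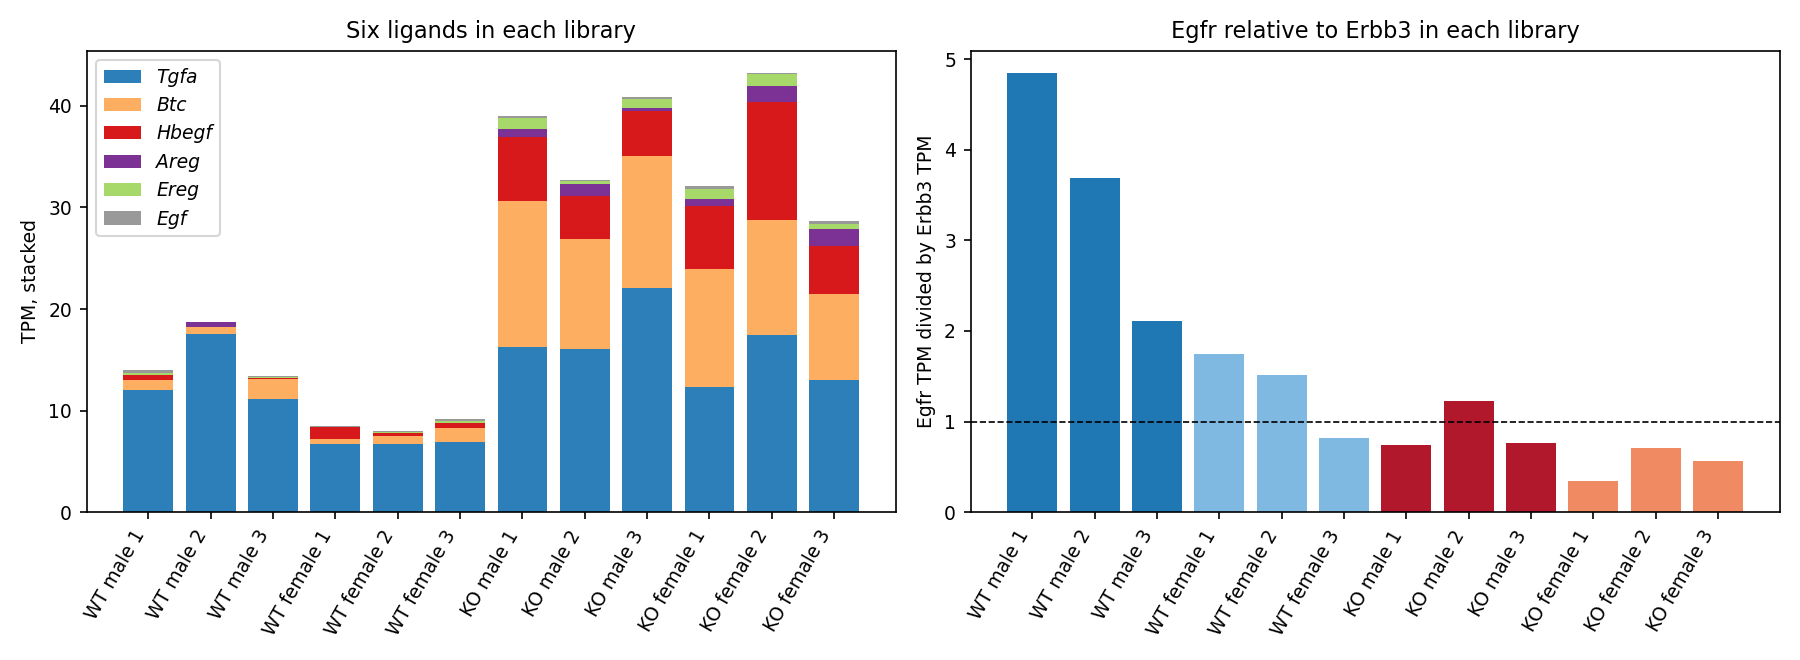
Left, stacked TPM, as deposited, of the 6 ligands in each library; right, Egfr TPM divided by Erbb3 TPM in each library, with a dashed line at 1. The KO bars on the left reach 28.7 to 43.3 TPM against 8.02 to 18.8 TPM in WT, with the mean layers of Btc (1.04 to 11.6 TPM), Tgfa (10.2 to 16.2 TPM) and Hbegf (0.445 to 6.25 TPM) all thicker in KO (the sums overlap after rescaling), and on the right the 3 WT males stand highest.

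Among WT livers 2 of the 7 tested members were higher in males and 0 lower at that threshold. Of the 12278 tested genes, 140 were higher in males (1.14%) and 565 lower. After rescaling it was again 2 and 0 members, beside 259 genes higher (2.11%) and 279 lower. *Egfr* was 2.61-fold higher in WT males than in WT females by group means (log2 difference 1.31, SE 0.27, limma adjusted p = 0.0142). *Tgfa* was 1.99-fold higher (0.87, SE 0.20, limma adjusted p = 0.0222). In both genes all 3 WT males were above all 3 WT females, as in 5.99% of all tested genes. The calls rested on few mice: the *Egfr* value became 1.10, 1.22 and 1.31 (limma adjusted p = 0.0588, 0.0639 and 0.0526) without WT male 1, WT male 2 and WT female 1. The *Tgfa* value became 0.69 without WT male 2 (limma adjusted p = 0.0955), 0.87, 0.87 and 0.89 without WT female 1, 2 and 3 (0.0765, 0.0798 and 0.0565), and 0.83 with a covariate for the 2 mice with low title numbers (0.0582).

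Among KO livers no member differed between the sexes at the adjusted threshold, where 0.0814% of all tested genes did. In *Egfr* all 3 KO males were still above all 3 KO females, as in 4.41% of all tested genes. Its log2 difference in the limma fit over all 12 libraries was 0.86 (adjusted p = 0.763, and 0.00711 before adjustment, the only member under 0.05). *Tgfa* had a difference of 0.33 (limma adjusted p = 0.859) with overlapping groups. The interaction, the genotype effect in males minus that in females, was called for no member, and none had an unadjusted p under 0.05 as deposited; 0.912% of all tested genes were called. For *Egfr* it was -0.45 (95% interval -1.27 to 0.38), for *Areg* -0.53 (-1.24 to 0.19) and for *Tgfa* -0.55 (-1.14 to 0.05), the last becoming -0.77 after rescaling (limma adjusted p = 0.568, and 0.0255 before adjustment). A smaller fall of *Egfr* or a larger rise of *Tgfa* in females was therefore not shown.

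Within males 4 of the 7 tested members were higher (*Btc*, *Hbegf*, *Erbb3* and *Areg*) and 1 lower (*Egfr*), beside 43.3% and 2.81% of all tested genes. Within females 4 were higher (*Btc*, *Hbegf*, *Areg* and *Tgfa*) and 1 lower (*Egfr*), beside 29.1% and 4.68%. After rescaling, 2 were higher and 1 lower in males (13.9% and 10.2% of all tested genes) and 4 higher and 1 lower in females (15.2% and 10.9%). In the 2 livers with low title numbers, WT female 3 and KO female 1, *Btc* was 1.31 and 11.7 TPM, *Hbegf* 0.508 and 6.23 TPM, *Areg* 0 and 0.645 TPM, and *Egfr* 53.7 and 25.5 TPM. The directions of these 4 genes were those of the full set.

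The authors' deposited table compared KO with WT with FDR p-values rounded to 2 decimals, and 6 of the 10 members had a value below 0.05, beside 24.2% of the 17332 genes it covers. In the authors' deposited table the log2 fold change was 3.62 for *Hbegf*, 3.09 for *Btc*, 3.04 for *Ereg*, 2.52 for *Areg*, -2.14 for *Egfr* and -0.50 for *Met* (FDR 0.03 for *Met*, 0.02 for *Areg* and printed as 0 for the others). *Tgfa* stood at -0.20 (FDR 0.57) and *Erbb3* at 0.13 (FDR 0.76) in the authors' deposited table. The directions of the 6 were those of the rescaled TPM. Of the 7 tested members, 5 have a value in the authors' deposited table outside the 95% interval of the rescaled difference, which was -1.93 to -0.93 for *Egfr*, 1.96 to 2.68 for *Btc*, 1.58 to 2.51 for *Hbegf*, 0.37 to 1.17 for *Areg* and -0.15 to 0.64 for *Tgfa*. The pseudocount of 1 shrinks the rescaled differences of genes that are low in WT, such as *Btc*, *Hbegf* and *Areg*, and the cause of the gaps was not tested.

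The other ligands and receptors of the families were given by a list. Of 7 further ligand genes 4 were tested and 3 rose, with a median log2 difference of 0.67 (2 of 4 rose after rescaling, median 0.26). *Nrg1*, which encodes a neuregulin that binds ERBB3 and ERBB4, went from 0.0675 ± 0.0429 to 1.25 ± 0.381 TPM (SD, n = 6). Its log2 difference was 1.06 (limma adjusted p = 9.41e-06) and 0.92 after rescaling. Its KO values all lay above WT as deposited, as in 28.7% of all tested genes. It passed the filter only through the KO livers, where it is high, so its call and its place in the count partly follow from the filter. *Hgf*, the ligand of MET, made mainly by stellate cells, went from 2.44 ± 0.567 to 5.49 ± 1.78 TPM (SD, n = 6; 0.88, limma adjusted p = 0.0012; 0.52 and 0.0378 after rescaling). *Mst1*, the ligand of the MET relative RON, rose from 132 to 183 TPM as deposited (0.47, limma adjusted p = 0.00197), with a rescaled difference of 0.00. *Nrg4* averaged 4.51 TPM in WT and 2.39 TPM in KO and did not pass over both sexes (-0.48, limma adjusted p = 0.288). Its mean was 2.33 TPM in WT males and 2.65 in KO males, against 6.69 in WT females and 2.12 in KO females. In females the *Nrg4* difference was -1.20 as deposited (limma adjusted p = 0.0563) and passed after rescaling (-1.45, limma adjusted p = 0.0310), while the difference between the sexes did not pass (limma adjusted p = 0.534 as deposited and 0.68 after rescaling). *Nrg2* (0.0354 and 0.443 TPM) and *Nrg3* (0.0214 and 0.0133 TPM) lay below the filter.

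Of 6 further receptors and co-receptors 5 were tested, 3 rose and 1 fell on both scales. *Erbb4*, the remaining EGF receptor, which binds neuregulins, betacellulin and HB-EGF, fell from 0.817 ± 0.332 to 0.189 ± 0.0891 TPM (SD, n = 6; log2 difference -0.59, limma adjusted p = 0.0028; -0.72 after rescaling). It is the 1 that fell, and it passed the filter only through the WT livers, where it is high, so this count partly follows from the filter. WT male 2, at 0.249 TPM, was the WT liver within the KO range of 0.0861 to 0.350 TPM. *Cd9*, a tetraspanin that associates with the HB-EGF precursor, rose from 19.0 ± 4.41 to 228 ± 45.6 TPM (SD, n = 6; 3.52, limma adjusted p = 3.16e-09). *Cd44*, a heparan sulfate carrying co-receptor, rose from 1.80 to 8.64 TPM (1.78) and *Plxnb1*, a MET partner, from 14.0 to 27.5 TPM (0.92). *Plxnb2* did not pass (0.23, limma adjusted p = 0.1), and *Mst1r*, which encodes RON, was below the filter at 0.141 TPM in WT and 0.629 TPM in KO.

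Ligand release and signalling were followed through 4 further lists. A list of 12 genes held those that process the ligands and some that inhibit the proteases. Of these, 10 were tested and 7 rose, with a median of 0.93 (6 rose and 1, the HGF activator gene *Hgfac*, fell after rescaling, median 0.49). They include the sheddases *Adam10* (1.12; 0.68 after rescaling) and *Adam17* (0.86; 0.43 after rescaling), the inactive rhomboids *Rhbdf2* (5.19 to 18.8 TPM, 1.70) and *Rhbdf1* (3.05 to 9.31 TPM, 1.41), which carry ADAM17 to the cell surface, and *St14*, the gene of the protease matriptase (0.353 to 6.53 TPM, 2.39). *St14* passed the filter only through the KO livers, which also bears on the count. *Spint2*, the gene of a protease inhibitor, is also among the 7 that rose (104 to 209 TPM, 1.00, and 0.54 after rescaling). Of 18 feedback inhibitors 8 rose and 1 fell, with a median of 0.34, equal to that of all tested genes within 0.01 (4 rose and 1 fell after rescaling). *Dusp5*, which encodes a phosphatase of MAP kinases, rose (1.03 to 6.28 TPM, 1.80). *Dusp4*, of the same family, passed over both sexes as deposited (1.06; 0.69 and limma adjusted p = 0.222 after rescaling), but its group means were 6.48 TPM in WT males and 6.45 in KO males (0.03, limma adjusted p = 0.962) against 0.587 in WT females and 6.25 in KO females (2.09, limma adjusted p = 0.00138). The interaction for *Dusp4* did not pass (-2.07, limma adjusted p = 0.181). *Spry4*, the gene of a Sprouty inhibitor, fell (6.30 to 2.66 TPM, -1.08). *Errfi1*, whose product MIG6 binds and inhibits EGFR, was abundant and did not pass (619 and 664 TPM, 0.12, limma adjusted p = 0.573).

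Of 21 signal transducers 14 rose and none fell as deposited, with a median of 0.28, below that of all tested genes, while 5 rose and 4 fell after rescaling (median -0.15). The largest were *Mapk3*, the gene of ERK1 (30.3 to 84.8 TPM, 1.48), *Gab2* (0.702 to 2.41 TPM, 1.00) and *Nras* (8.08 to 15.3 TPM, 0.85). Of 10 ERK-responsive genes 8 were tested and 6 rose, with a median of 2.46 (4 of 8 rose after rescaling, median 2.02). *Ier3*, an immediate early gene, rose from 1.62 ± 1.15 to 22.0 ± 7.95 TPM (SD, n = 6), with a log2 difference of 3.16 (limma adjusted p = 1.58e-06). Its KO values all lay above WT as deposited, as in 28.7% of all tested genes. *Fos* (3.50, SE 0.93, limma adjusted p = 0.00644) and *Jun* (3.09, SE 0.82, limma adjusted p = 0.00636) passed over both sexes. Their WT values spread widely, and the difference between WT males and WT females did not pass (2.96 and 3.23, limma adjusted p = 0.158 and 0.0892). The mean of *Fos* was 35.4 TPM in WT males and 1.07 in WT females, and 78.1 and 92.7 TPM in KO males and females. That of *Jun* was 138 and 6.61 TPM in WT and 238 and 259 TPM in KO. Within males neither passed (*Fos* 2.06, limma adjusted p = 0.182; *Jun* 1.65, limma adjusted p = 0.209), and within females both rose (4.94 and 4.53, limma adjusted p = 0.00814 and 0.00532). Their interactions did not pass (-2.88 and -2.89, limma adjusted p = 0.66 and 0.607). The counts describe the lists and are to be read against the 50.1% and 4.82% of all tested genes that rose and fell (20.9% and 18.7% after rescaling).

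**Figure D4:**
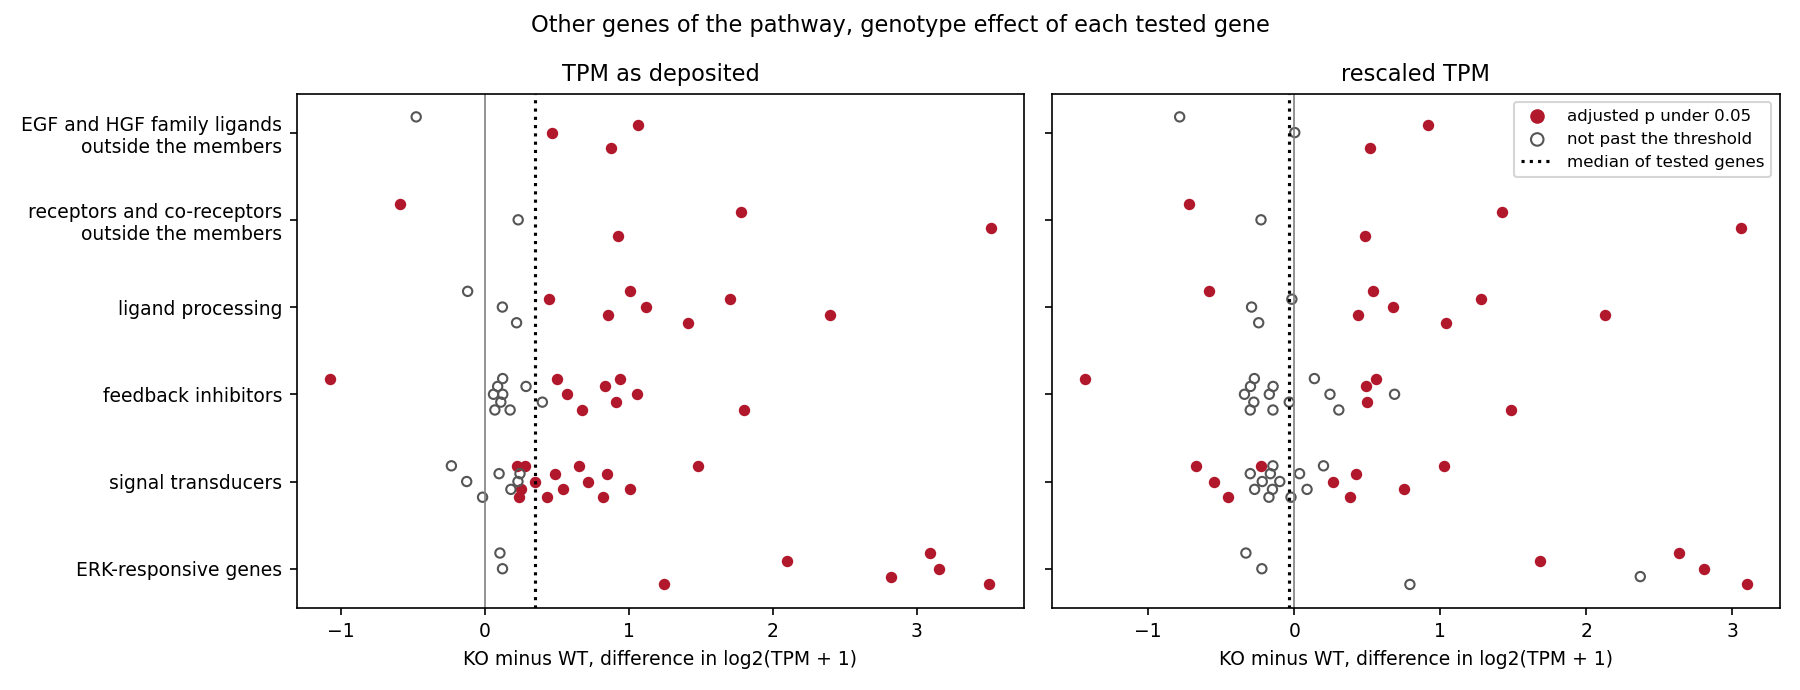
KO minus WT difference in log2(TPM + 1) of each tested gene of 6 lists, as deposited (left) and rescaled (right); filled points passed an adjusted p of 0.05, and dotted lines mark the median of all tested genes. The ERK-responsive list reaches 3.50 and has its median at 2.46 on the left, while the medians of feedback inhibitors (0.34) and signal transducers (0.28) lie near the dotted line at 0.35.

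Because the RNA came from whole liver, a change in how many cells of a type were present and a change in RNA per cell cannot be told apart. Marker counts here and below are to be read against the 50.1% and 4.82% of all tested genes called higher and lower (20.9% and 18.7% after rescaling). All 5 macrophage markers were higher in KO on both scales (median log2 difference 2.01, and 1.61 after rescaling). Their summed level was 59.2 to 189 TPM in WT and 266 to 539 TPM in KO. Among them *Cd68* had the largest difference (2.48) and *Clec4f*, a Kupffer cell gene, the smallest (1.61). Of 6 stellate and fibroblast markers 4 were higher (2 higher and 1 lower after rescaling), from *Col1a1* at 4.01 to *Lrat*, a gene of quiescent stellate cells, at -0.54 (limma adjusted p = 0.0671), which after rescaling was the 1 lower marker (-0.91, limma adjusted p = 0.00334). Their sum was 54.3 to 155 TPM in WT and 114 to 285 TPM in KO. The part of these cells in the values of *Hbegf*, *Areg*, *Ereg*, *Btc* or *Hgf* was not tested.

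Of 6 bile duct markers 4 were tested, of which 2 were higher and 1 lower (1 and 1 after rescaling). *Sox9* had the largest difference (1.57) and *Epcam* the smallest (-0.35, limma adjusted p = 0.0312), and their summed level was 12.4 to 17.5 TPM in WT and 22.8 to 33.5 TPM in KO. The defining duct keratins were low in both genotypes, *Krt19* at 1.38 and 1.25 TPM and *Krt7* at 0.229 and 0.255 TPM, and *Cftr* was at 0.0280 and 0.0174 TPM. Of 6 hepatocyte markers 1 was higher and 1 lower (none higher and 3 lower after rescaling), from *Hnf4a* at 0.33 to *Ttr* at -1.10, and their sum was 74162 to 102331 TPM in WT and 56274 to 81587 TPM in KO. Of 5 endothelial markers *Cdh5* was higher (0.88) and *Kdr* lower (-0.62) as deposited, and none was higher and 2 lower after rescaling, with sums of 24.7 to 34.1 and 18.2 to 60.8 TPM. The part of these cells in the fall of *Egfr* or the rise of *Btc* was not tested.

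Neutrophil markers summed to 0.0753 to 19.4 TPM in WT and 9.15 to 41.9 TPM in KO. Of the 3 tested, *S100a8* (1.48) and *S100a9* (1.43) were higher as deposited and none after rescaling, *Retnlg* had the smallest difference (0.61), and *Ly6g* was listed at 0 in every WT library. Lymphocyte markers overlapped, at 1.70 to 5.45 and 1.70 to 5.76 TPM, and none of the 3 tested passed, from *Cd3e* at 0.16 to *Cd79a* at -0.07. The markers of type 2 innate lymphoid cells, basophils and mast cells, which can make amphiregulin, summed to 0 to 0.311 TPM in WT and 0.523 to 2.24 TPM in KO. Nearly all of this was *Gata3* (0.124 to 1.02 TPM, log2 difference 0.81, limma adjusted p = 0.000323), which passed the filter only through the KO livers, where it is high, whereas *Il1rl1*, *Mcpt8* and *Cpa3* averaged at most 0.0313 TPM in either genotype and *Fcer1a* was listed at 0 in all libraries. The part of these cells in the *Areg* values was not tested.

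The genes whose pattern over the 12 livers was most like that of *Egfr* were *Nat8*, *Adh4*, *Nat8f5*, *Slc33a1* and *Elovl3*, with Pearson correlations of log2(TPM + 1) from 0.888 to 0.897. For *Btc* they were *Arhgap18*, *Btbd8*, *Pls1*, *Plekhf2* and *Wwtr1*, from 0.983 to 0.992, *Btc* being taken as the ligand with the largest difference at a pseudocount of 1. For *Btc* the points fall into a WT and a KO set, so that its correlations span the genotype difference. For *Egfr* the genotypes overlap across the sexes, and its correlations span the differences of both genotype and sex. All share libraries between genes and are given as a description. *Wwtr1*, the gene of the YAP1 relative TAZ, was 5.65 TPM in WT and 14.0 TPM in KO.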

How the data were processed

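Bulk RNA sequencing of liver from 12 mice was used, with groups taken from the sample titles and replicates numbered in order of deposition. The deposited table gave TPM for 25676 genes, each column summing to 1000000, per the file headers. The submitters' processing notes name GRCm38 and edgeR; the aligner, the counter and the use of strand are not given in the sources used here. The authors' deposited columns of their own comparison hold per the file headers, a signed fold change (a score without a fixed range), its log2 and a rounded FDR; values from them are named as such. Each of the 12 sample columns matched 1 sample, and 0 were unmatched.

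TPM were analysed as log2(TPM + 1). Genes with a mean of at least 0.5 TPM entered limma 3.58.1 (R 4.3.3; eBayes with an intensity trend), with sex as a covariate for the genotype comparison and with 4 group means for the others. Adjusted p-values are Benjamini-Hochberg values over all 12278 genes fitted, called under 0.05. Genes below the filter, Areg and Yap1 were tested by exact permutation of genotype within sex over 400 arrangements. TPM steps gave whole reads for 16570 of the 17332 genes above 0 in any library (95.6%, within 0.02 reads), covering at least 88.0% of the TPM; the reads quoted are these estimates, and limits from them cover counting error only.

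Positions came from GENCODE mouse release 21 on GRCm38, and upstream sequences from RefSeq on GRCm38. Protein sequences were not used here, nor was sequence from chromosome 18. The text names the 10 genes, Yap1, every listed further ligand and receptor, the 3 largest changes past the threshold of each other pathway list, the extreme markers of each marker list, and the 5 genes most correlated with Egfr and with the member of largest change. *Adam10*, *Adam17*, *Hgfac*, *Spint2*, *Errfi1* and the low or zero markers named fall outside that rule and were chosen after their values were seen. The members and lists were chosen with earlier results of these data known.

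Alternatives were another pseudocount (0.1 or 0.5), no filter or a mean of at least 2 TPM, rescaling by median-of-ratios factors or without the 20 most abundant genes, eBayes without trend, a covariate for the 2 mice with low title numbers, and leaving out each library.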

Additional observations from a re-analysis of the deposited data

How the results depend on the processing

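With median-of-ratios rescaling the genotype comparison called 3 members higher and 2 lower, and the male comparison 2 higher. The females' count of lower members was 0 without a filter on low values (where 10 members were tested) and 0 with eBayes without trend, and 0 to 1 as single libraries were left out. The count of members higher in WT males than in WT females was 1 with the covariate for the 2 mice with low title numbers and 0 to 2 as single libraries were left out. The male count of higher members was 2 to 5 as single libraries were left out. The genotype difference of Met changed sign, ranging from -0.113 to 0.0526, and that of Erbb2, from -0.0405 to 0.0744, as single libraries were left out, and Erbb2 was -0.111 after rescaling; neither passed in any of these. Genotype differences of Btc (2.57 to 2.77), Hbegf (2.15 to 2.40), Areg (0.81 to 1.01) and Egfr (-1.08 to -0.86) passed without each library. A filter of at least 2 TPM left no value for Areg. Because the limma fits share 1 estimate of the spread, a left-out library of another group also moves a p-value. Reads of Areg, Ereg, Egf and Erbb2 were too few for small differences to be detectable. No paired analysis was possible because the labels give no replicate numbers, and numbers assigned in order of deposition pair no mice.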
